A study of Mus musculus with 9 samples.

Results

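CC chemokine ligands are small secreted proteins, named for a pair of adjacent cysteines, that bind receptors coupled to G proteins on leukocytes and direct their movement. Followed here were 10 of the 52476 genes in the expression tables, namely Ccl2, Ccl3, Ccl4, Ccl5, Ccl6, Ccl7, Ccl9, Ccl12, Ccl17 and Ccl22, taken by their symbols. All 10 passed the filter on low values and were among the 11768 genes tested. The tables come from mRNA sequencing of 9 libraries of mouse monocyte-derived dendritic cells, 3 in each of 3 groups. Monocytes of C57BL/6 bone marrow were grown for 7 days with GM-CSF at 100 ng/mL and IL-4 at 50 ng/mL and then sorted by flow cytometry, and all groups share that culture. The control group was labelled as unstimulated. The R837 group received R837 (imiquimod, an agonist of the RNA sensor TLR7), and the last group received R837 with the polyamine spermidine. Per the labels, interferon α was given for 24 h as priming, and R837 alone or with spermidine followed for 18 h. It is not stated if controls had the interferon, so R837 and priming cannot be told apart in any comparison with the control. They give no dose of R837 or spermidine, list no group with spermidine alone, and do not say whether the replicates were separate cultures or animals, so the p-values measure only the spread between these libraries.

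Dendritic cells make CC chemokines when a pattern receptor such as TLR7 signals through MyD88, and NF-kB and AP-1 factors act on many of these genes. Ligands of CCR2 call monocytes out of the bone marrow, ligands of CCR1 attract monocytes, effector T cells and natural killer cells, and ligands of CCR4 attract helper, regulatory and skin-homing T cells. Ccl17 and Ccl22 are also known targets of IL-4 acting through STAT6, and IL-4 was in the culture medium here.

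The genes form 3 neighbourhoods (GRCm38/mm10 positions from the GENCODE M21 annotation, since the labels name mm10 beside mm8). Ccl2 (chr11:82035571-82037453, plus strand), Ccl7 (chr11:82045712-82047525, plus) and Ccl12 (chr11:82101845-82103400, plus) lie together. Further along chromosome 11 lie Ccl5 (chr11:83525778-83530518, minus), Ccl9 (chr11:83572919-83578636, minus), Ccl6 (chr11:83587882-83593087, minus), Ccl3 (chr11:83647844-83649355, minus) and Ccl4 (chr11:83662584-83664683, plus). Ccl22 (chr8:94745590-94751699, plus) and Ccl17 (chr8:94810453-94812036, plus) are neighbours on chromosome 8. Each gene has 3 exons except Ccl6 and Ccl9, which have 4. The measurements are given per gene, and how reads were assigned to exons is not given in the sources used here.

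Promoter sequences of 6 of the 10 genes were found in the RefSeq table (GRCm38.p6), and Ccl2, Ccl4, Ccl5 and Ccl7 had no entry. Each runs from 250 bases before to 50 bases after the gene's start in RefSeq. For Ccl3 and Ccl22 that start differs from the GENCODE start given above, and for Ccl22 it lies inside the GENCODE gene. Motif positions count from the RefSeq start. The windows of Ccl3, Ccl17, Ccl22 and Ccl9 are shown because they cover the ligand with the largest rise, the pair known as IL-4 targets, and 1 of the ligands that did not pass the test. Capitals mark matches to the motifs kB (GGG, any 5 bases, CC), STAT6 (TTC, any 4 bases, GAA), ISRE (GAAA, any 2 bases, GAAA) and AP-1 (TGANTCA), searched on both strands, and the sequences read 5′ to 3′ on the strand of the gene. The regions are chr11:83649329-83649628 (minus) for Ccl3, chr8:94810203-94810502 (plus) for Ccl17, chr8:94745434-94745733 (plus) for Ccl22 and chr11:83578587-83578886 (minus) for Ccl9.
Ccl3: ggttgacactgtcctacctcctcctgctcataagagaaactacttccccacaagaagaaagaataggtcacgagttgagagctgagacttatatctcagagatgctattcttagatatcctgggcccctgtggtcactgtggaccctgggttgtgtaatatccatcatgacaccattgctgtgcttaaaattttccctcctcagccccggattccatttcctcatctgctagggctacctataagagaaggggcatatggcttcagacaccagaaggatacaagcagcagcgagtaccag
Ccl17: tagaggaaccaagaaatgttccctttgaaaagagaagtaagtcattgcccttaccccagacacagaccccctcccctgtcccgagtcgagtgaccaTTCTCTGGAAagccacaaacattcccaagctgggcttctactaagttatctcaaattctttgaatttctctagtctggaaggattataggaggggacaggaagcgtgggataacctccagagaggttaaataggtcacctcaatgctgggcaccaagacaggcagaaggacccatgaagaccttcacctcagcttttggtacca
Ccl22: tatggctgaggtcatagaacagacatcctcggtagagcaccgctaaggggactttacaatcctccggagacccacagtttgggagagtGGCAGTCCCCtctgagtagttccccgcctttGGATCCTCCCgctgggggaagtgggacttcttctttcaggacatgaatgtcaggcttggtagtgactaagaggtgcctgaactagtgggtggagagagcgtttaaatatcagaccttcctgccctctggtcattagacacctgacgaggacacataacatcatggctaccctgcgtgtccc
Ccl9: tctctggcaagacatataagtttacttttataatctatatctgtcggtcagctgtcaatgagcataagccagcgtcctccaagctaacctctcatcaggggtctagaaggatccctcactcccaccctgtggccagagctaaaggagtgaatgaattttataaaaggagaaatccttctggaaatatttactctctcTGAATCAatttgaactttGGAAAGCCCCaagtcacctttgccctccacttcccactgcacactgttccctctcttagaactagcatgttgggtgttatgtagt

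The Ccl17 window held 1 STAT6 match, TTCTCTGGAA, starting at base -154 from the gene's start. The Ccl22 window held 2 kB matches, GGCAGTCCCC at -162 and GGATCCTCCC at -131 from the RefSeq start, both on the opposite strand. In the Ccl9 window an AP-1 match, TGAATCA, stood at -53 and a kB match on the opposite strand, GGAAAGCCCC, at -35. None of the 4 motifs was found in the windows of Ccl3, Ccl6 and Ccl12, which says only that these letters are not there. Of all 32851 promoters in the table, 50.8% held the kB motif, 6.95% STAT6, 3.44% ISRE and 7.81% AP-1, so a kB match is common.

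The values are FPKM, fragments per kilobase of transcript and per sequencing depth of the library, and changes are differences of mean log2(FPKM + 1) from limma. Depth, read from the smallest steps in the values, was between 10700000 and 14400000 units per library. R837 replicate 2 stood apart: 664 tested genes (5.64%) were at least 1.5-fold (on FPKM + 1) below both other R837 libraries there, against 68 to 115 genes in each of the other 8 libraries. Ccl6 and Ccl9 were among those 664, and no other of the 10 ligands was. Of 9 dendritic cell markers 7 reached 1 FPKM, with Cd74 and H2-Ab1 high, while Cd209a was listed at 0 in all 9 libraries and Flt3 stayed below 0.418 FPKM. The dendritic cell markers summed to 2776 to 2830 FPKM in controls, 2908 to 3511 with R837, above every control, and 2731 to 2892 with spermidine added. Cd74 made up most of these sums, at 2086 to 2144 FPKM in controls and 2234 to 2735 with R837. Ciita, Itgax and Zbtb46 also lay above every control with R837, while H2-Ab1, Batf3 and Flt3 overlapped the controls. Mgl2 went the other way, from 67.8 to 70.7 FPKM in controls to 47.9 to 52.7 with R837. All 7 macrophage markers also reached 1 FPKM, with a summed level of 1349 to 1518 in controls, 1347 to 1528 with R837 and 1229 to 1375 with R837 and spermidine. The 4 monocyte markers summed to 248 to 261 FPKM in controls, 546 to 677 with R837 and 491 to 560.1 with spermidine added. That sum, most of it Cd14 and Ly6c2, moved with the groups. The 4 erythroid markers summed to 170 and 1312 FPKM in R837 replicates 2 and 3 and to at most 5.01 elsewhere. Neutrophil markers summed to 344 in R837 replicate 3 and to 50.4 to 72.4 in the others. Eosinophil, basophil and mast cell markers summed to 14.4 and 42.4 in R837 replicates 2 and 3 and to at most 8.82 elsewhere. B cell markers summed to 3.83 in R837 replicate 3 and to at most 0.603 elsewhere. T cell and natural killer cell markers never reached 1 FPKM. The part of these other cells in the results below was not tested.

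Most of the CC chemokine ligands were higher with R837, and most of those were lower again when spermidine was added. Against control, 7 of the 10 rose (Ccl2, Ccl3, Ccl4, Ccl5, Ccl7, Ccl17 and Ccl22), none fell and 3 did not pass the test (limma, Benjamini-Hochberg adjusted p under 0.05), where 13.6% of all tested genes were called higher and 29.5% lower. In the same 7 every R837 library lay above every control library, as it did for 15.8% of tested genes. With spermidine added to R837, 6 of the 10 fell, none rose and 4 did not pass, where 8% of tested genes were called lower and 5.6% higher. The 6 were the same genes without Ccl5. In 7 of the 10, Ccl5 among them, every library with spermidine lay below every library with R837 alone, as it did for 18.5% of tested genes. The median log2 change of the 10 was 1.41 with R837, against -0.171 for all tested genes, and -0.60 with spermidine, against -0.02. The comparisons share the R837 libraries, and in RNA of whole cultures fewer cells that express a gene and less RNA per cell cannot be told apart.

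**Figure D1:**
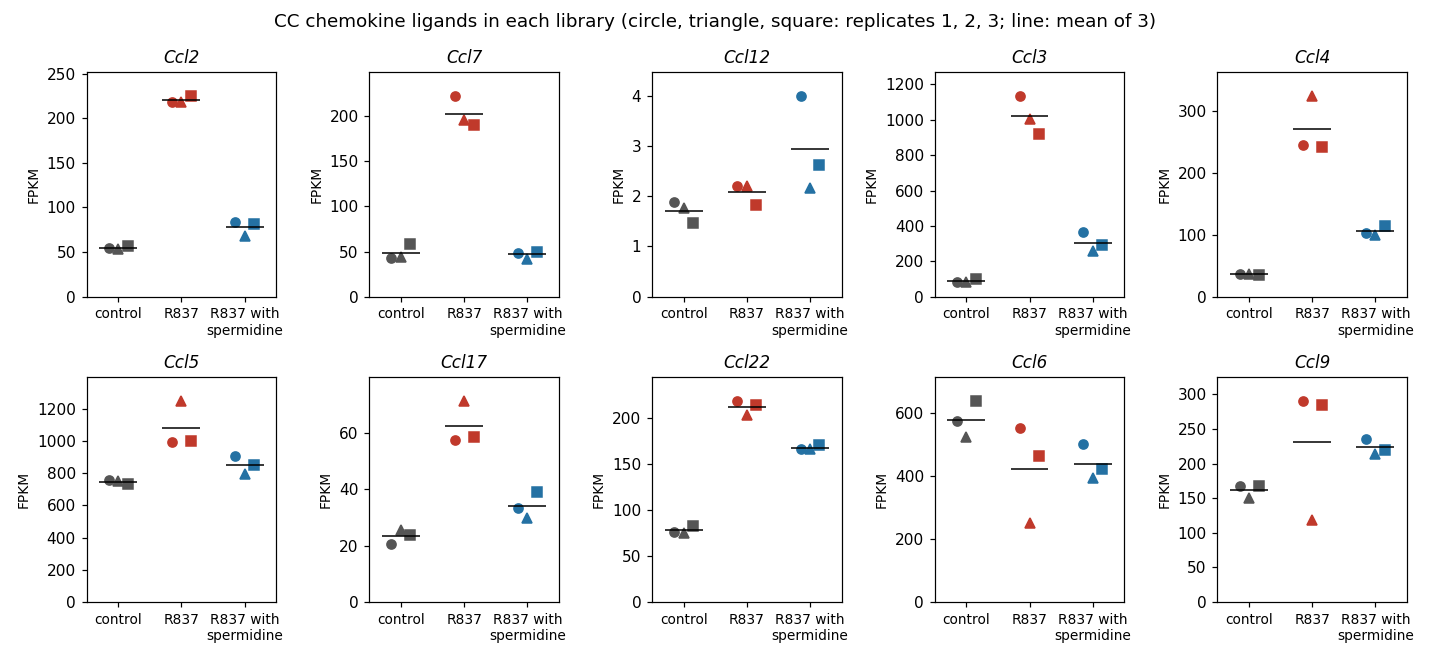
FPKM of each of the 10 ligands (vertical axes, linear, from 0) in the 9 libraries by group; circles, triangles and squares are replicates 1, 2 and 3 and the line is the mean of 3. Ccl2, Ccl7, Ccl3 and Ccl4 are high in all 3 R837 libraries and lower in all 3 with spermidine, while Ccl6 and Ccl9 are low in R837 replicate 2.

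Ccl2, Ccl7 and Ccl12 are ligands of CCR2, the receptor that monocytes follow. Ccl2 stood at 54.2, 53.0 and 57.3 FPKM in the controls, at 219, 218 and 225 with R837, and at 84.0, 68.3 and 81.7 with spermidine added. The R837 libraries were close to each other and far above both other groups, which did not overlap. Ccl2 rose 4.02-fold with R837 (log2 change 1.99 ± 0.09 SE, limma adjusted p = 2.5e-07) and fell 2.83-fold with spermidine (-1.49 ± 0.09, adjusted p = 3.7e-05). It remained 1.42-fold above control (0.50 ± 0.09, adjusted p = 0.0015).

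Ccl7 lies next to Ccl2 and also binds other CC receptors. Its level was 42.7, 43.7 and 58.9 FPKM in the controls, 222, 195 and 190 with R837, and 48.7, 41.7 and 50.0 with spermidine. Every R837 library was high, and the spermidine libraries overlapped the controls. The rise with R837 was 4.18-fold (2.05 ± 0.13, adjusted p = 3.3e-06), and the fall with spermidine, 4.32-fold, was the largest of the 10 (-2.09 ± 0.13, adjusted p = 6.2e-05). Against control, R837 with spermidine gave a log2 difference of -0.04 (95% interval -0.34 to 0.26, adjusted p = 0.84), whose sign turned under other settings.

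Within each library the log2 difference of Ccl2 over Ccl7 was 0.127 ± 0.136 (SD, n = 3) with R837 and 0.724 ± 0.043 with spermidine, and the groups did not overlap. An exact two-sided permutation test gave p = 0.10, the smallest that 3 against 3 can give (0.167 adjusted over 10 such comparisons), so the larger fall of Ccl7 did not pass. Ccl12, a mouse gene, was near the floor of the measurement. It read 1.89, 1.76 and 1.46 FPKM in the controls, 2.21, 2.20 and 1.83 with R837, and 3.99, 2.17 and 2.63 with spermidine, resting on 9 to 23 units per library. Its R837 values overlapped those of both other groups, and neither the change with R837 (0.19, adjusted p = 0.37) nor with spermidine (0.33, adjusted p = 0.21) passed. R837 with spermidine was above control (0.52, adjusted p = 0.026), a call lost without spermidine replicate 1 (0.33, adjusted p = 0.06), without control replicate 2 (0.059) or 3 (0.085), and with no filter (0.067).

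Ccl3 and Ccl4 are inflammatory chemokines that attract monocytes and T cells, and Ccl3 binds CCR1. Ccl3 read 82.7, 81.4 and 100.5 FPKM in the controls, 1134, 1006 and 919 with R837, and 367, 259 and 290.5 with spermidine. The 3 groups did not overlap. Its rise, 11.6-fold, was the largest of the 10 (3.52 ± 0.14, adjusted p = 1.7e-07), its fall with spermidine was 3.34-fold (-1.75 ± 0.14, adjusted p = 2e-04), and it stayed 3.46-fold above control (1.77 ± 0.14, adjusted p = 1.8e-05).

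Ccl4, its neighbour on the opposite strand, read 35.9, 36.9 and 35.6 FPKM in the controls, 245, 324 and 242 with R837, and 104, 100.008 and 114 with spermidine. The groups did not overlap here either, and R837 replicate 2 was the highest library. Ccl4 rose 7.48-fold (2.86 ± 0.11, adjusted p = 1.6e-07), fell 2.55-fold with spermidine (-1.33 ± 0.11, adjusted p = 0.00026) and stayed 2.93-fold above control (1.52 ± 0.11, adjusted p = 1.2e-05). The log2 difference of Ccl3 over Ccl4 went from 1.257 ± 0.186 in controls to 1.92 ± 0.287 with R837 without overlap (exact permutation p = 0.10), and to 1.506 ± 0.266 with spermidine, where it overlapped the R837 values (p = 0.2).

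Ccl5 binds CCR1 and CCR3, among others, and had the highest mean of the 10 per length of transcript in every group; without R837 replicate 2 the R837 mean of Ccl3 (1027 FPKM) was above that of Ccl5 (997.2). It read 759, 749.5 and 736 FPKM in the controls, 994, 1248 and 1001 with R837, and 906, 796 and 848 with spermidine. Each group lay apart from the next, though by little. It rose 1.44-fold with R837 (0.52 ± 0.10, adjusted p = 0.0025). The difference with spermidine was -0.34 ± 0.10 (95% interval -0.56 to -0.12), and its adjusted p of 0.051 did not pass; it passed without R837 replicate 2 (-0.23, adjusted p = 0.044). R837 with spermidine against control gave 0.18 ± 0.10 (adjusted p = 0.16), which passed without R837 replicate 2 (0.023).

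Ccl17 and Ccl22 are the ligands of CCR4. Ccl17 read 20.5, 25.6 and 23.9 FPKM in the controls, 57.4, 71.3 and 58.6 with R837, and 33.5, 29.8 and 39.2 with spermidine. The spermidine libraries lay between the other groups with no overlap. It rose 2.68-fold (1.38 ± 0.13, adjusted p = 3.4e-05), fell 1.83-fold (-0.85 ± 0.13, adjusted p = 0.0038) and stayed 1.47-fold above control (0.53 ± 0.13, adjusted p = 0.0089).

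Ccl22 read 76.4, 74.8 and 82.8 FPKM in the controls, 218, 203 and 214 with R837, and 166, 166 and 170.2 with spermidine. The order of the groups was that of Ccl17, but the spermidine libraries lay nearer to R837. Ccl22 rose 2.71-fold (1.43 ± 0.07, adjusted p = 4.3e-07), fell 1.26-fold (-0.34 ± 0.07, adjusted p = 0.012) and stayed 2.15-fold above control (1.09 ± 0.07, adjusted p = 3.7e-06). The log2 difference of Ccl17 over Ccl22 was -1.705 ± 0.175 in controls and -1.751 ± 0.223 with R837 (exact permutation p = 0.8). With spermidine it was -2.269 ± 0.173, below every R837 library, with an exact permutation p of 0.10, the smallest possible. The STAT6 match was in the Ccl17 window and the kB matches in that of Ccl22; what the matches have to do with these values was not tested.

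Ccl6 and Ccl9 are rodent ligands of CCR1. Ccl6 read 576, 524 and 639 FPKM in the controls, 554, 252 and 465 with R837, and 503, 395 and 422 with spermidine. Ccl9 read 168, 149.8 and 167 FPKM in the controls, 290.2, 118 and 285 with R837, and 236, 215 and 220.04 with spermidine. In both, R837 replicate 2 was the lowest of all 9 libraries, at 0.494 (Ccl6) and 0.41 (Ccl9) of the mean of the other R837 libraries. No comparison of either gene passed: with R837 the log2 change was -0.52 ± 0.25 for Ccl6 (adjusted p = 0.12) and 0.40 ± 0.29 for Ccl9 (adjusted p = 0.29), and with spermidine 0.12 ± 0.25 (adjusted p = 0.78) and 0.06 ± 0.29 (adjusted p = 0.91).

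That library decided the outcome for Ccl9. Without it Ccl9 was higher with R837 (0.83, adjusted p = 4.1e-05), lower with spermidine (-0.37, adjusted p = 0.013) and higher with both against control (0.46, adjusted p = 0.00046). Without it Ccl6 gave -0.19 with R837 (adjusted p = 0.26), -0.21 with spermidine (adjusted p = 0.31) and -0.40 with both against control (adjusted p = 0.019). With that library kept and R837 replicate 1 left out, the change of Ccl6 with R837 was -0.75 (adjusted p = 0.037). Called ligands without R837 replicate 2 were 8 higher with R837, 8 lower with spermidine, and 8 higher and 1 lower against control. Of all genes tested without that library, 1744 were called higher and 3805 lower with R837. With spermidine 735 were called higher and 905 lower, and against control 1996 higher and 4491 lower. Within libraries the log2 difference of Ccl6 over Ccl9 was 1.833 ± 0.085 in controls and 0.908 ± 0.194 with R837, without overlap and with replicate 2 the highest of the R837 libraries (0.931, 1.089 and 0.703; exact permutation p = 0.10). It was 0.968 ± 0.11 with spermidine (exact permutation p = 0.6).

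**Figure D2:**
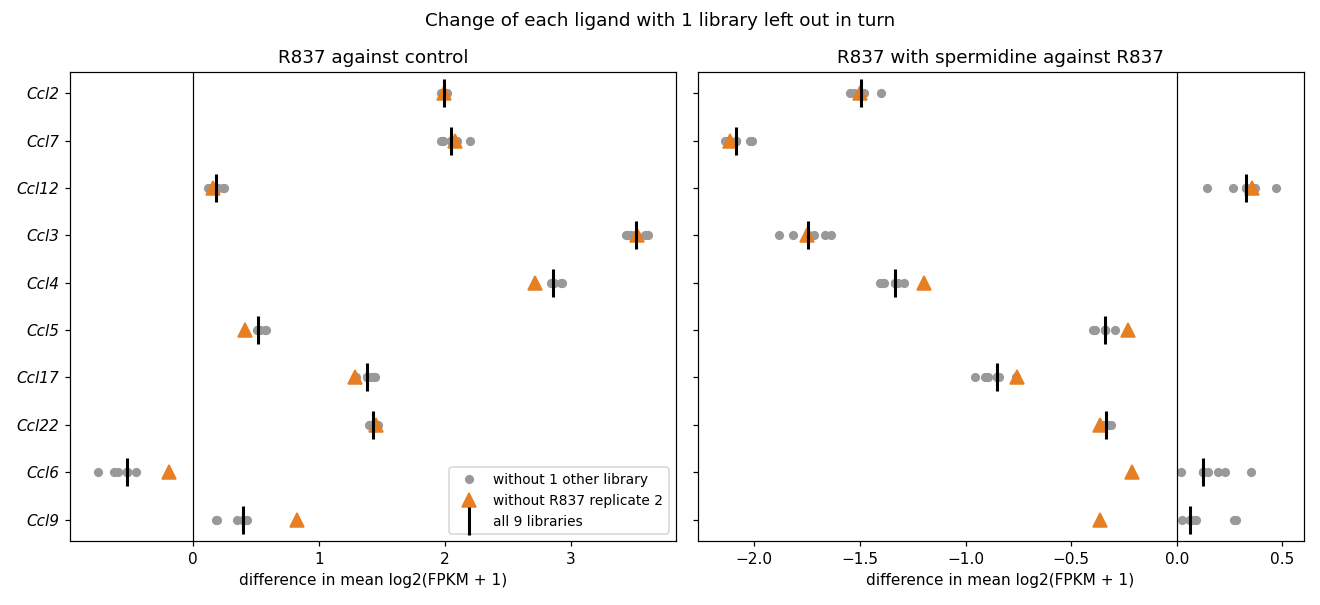
Difference in mean log2(FPKM + 1) of each ligand (horizontal axis) with all 9 libraries (black bar), without R837 replicate 2 (orange triangle) and without each other library (grey points), for R837 against control and R837 with spermidine against R837. Only for Ccl6 and Ccl9 does a value change sign, when R837 replicate 2 is left out of the second comparison (-0.21 and -0.37).

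Compared with control, R837 with spermidine left 6 of the 10 ligands higher (Ccl2, Ccl3, Ccl4, Ccl12, Ccl17 and Ccl22) and none lower, where 14.1% of tested genes were called higher and 32.7% lower. Every library lay above every control in 8 and below in 1, Ccl6; 19.6% of tested genes lay above and 43.4% below. The median log2 change of the 10 was 0.51, against -0.168 for all tested genes. Without R837 replicate 2, 8 ligands were called higher and 1 lower (Ccl6), where 1996 of all tested genes were called higher and 4491 lower. That library is in neither group and enters through the spread that all 9 libraries share.

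**Figure D3:**
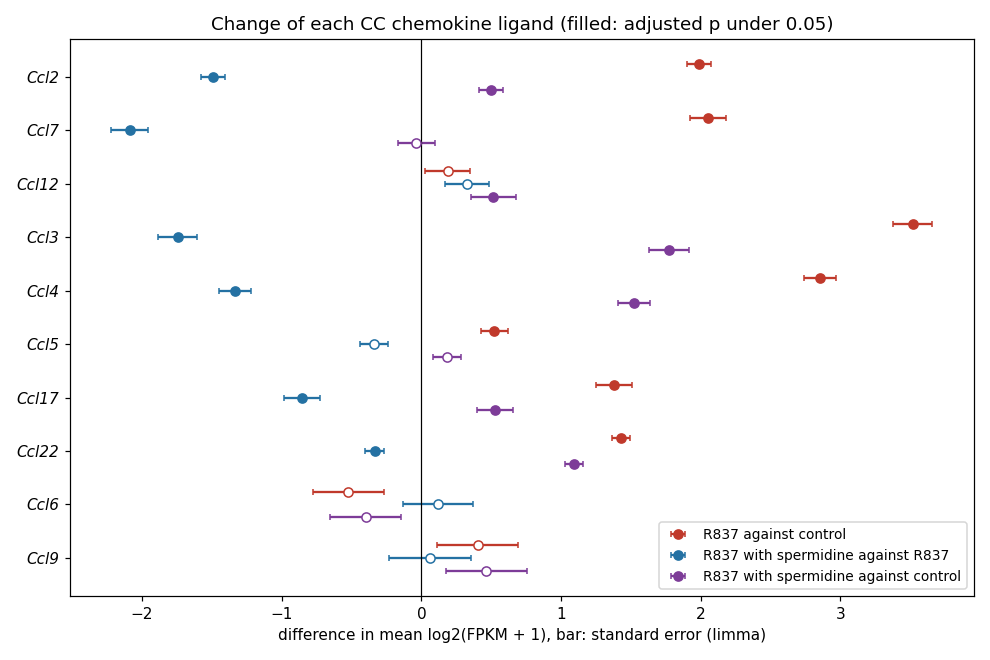
Difference in mean log2(FPKM + 1) of each ligand (horizontal axis; bars are limma standard errors) in the 3 comparisons; filled points have an adjusted p under 0.05. Ccl7 falls furthest with spermidine (-2.09) and lies at -0.04 against control, while Ccl3, Ccl4 and Ccl22 remain more than 1 above control.

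The summed level of the 10 ligands was 1741 to 1902 FPKM in controls, 3601 to 3936 with R837 and 2072 to 2452 with spermidine, with no overlap. Its makeup differed as well. Ccl5 and Ccl6 held 41.2% ± 2.24 and 31.8% ± 1.74 (SD, n = 3) of the sum in controls, and 29.1% ± 4.67 and 11.3% ± 3.84 with R837. Ccl3 went from 4.84% ± 0.39 to 27.3% ± 1.67 with R837 and stood at 13.5% ± 1.30 with spermidine. Ccl22 had its highest share with spermidine, 7.46% ± 0.62, against 5.68% ± 0.22 with R837 alone.

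**Figure D4:**
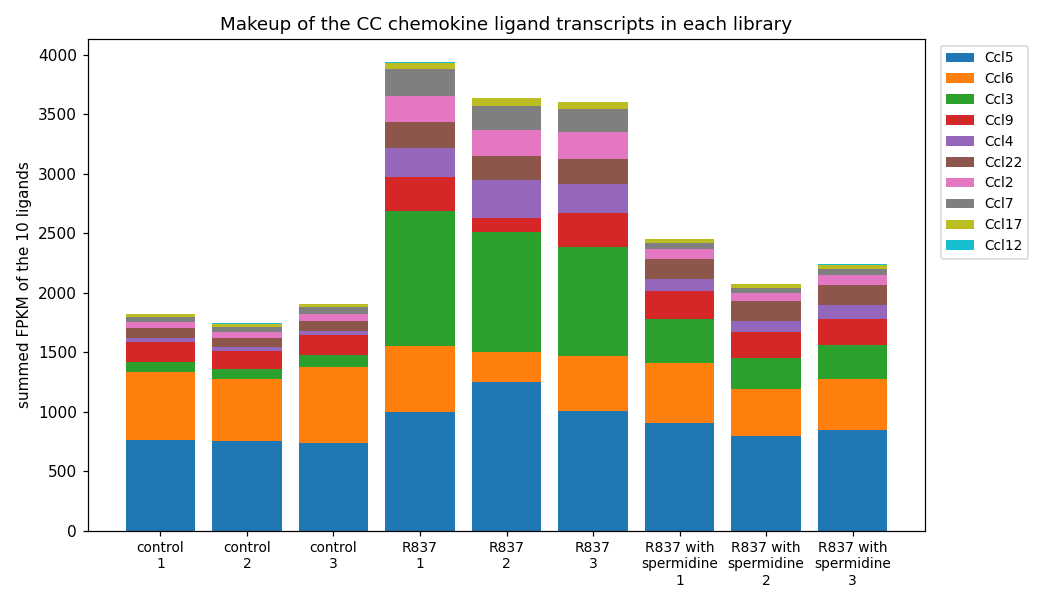
Summed FPKM of the 10 ligands (vertical axis, linear, from 0) in each library, split by ligand. The sums are 1741 to 1902 in controls, 3601 to 3936 with R837 and 2072 to 2452 with spermidine, and the Ccl3 section grows most.

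In controls the levels per length ran from Ccl5 through Ccl6, Ccl9, Ccl3, Ccl22, Ccl2, Ccl7, Ccl4 and Ccl17 to Ccl12, and the neighbours Ccl3 and Ccl22, and Ccl2 and Ccl7, overlapped. With R837 the order was Ccl5, Ccl3, Ccl6, Ccl4, Ccl9, Ccl2, Ccl22, Ccl7, Ccl17 and Ccl12; Ccl5 overlapped Ccl3, the run from Ccl6 to Ccl2 overlapped from neighbour to neighbour, and so did Ccl22 and Ccl7. With spermidine the order was Ccl5, Ccl6, Ccl3, Ccl9, Ccl22, Ccl4, Ccl2, Ccl7, Ccl17 and Ccl12, and no neighbours overlapped.

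The genes whose log2(FPKM + 1) followed each ligand most closely over the 9 libraries are given by Pearson r as a description. The libraries fall into the same 3 groups, so group differences enter r. For Ccl6 and Ccl9 the low R837 replicate 2 enters as well. Their shares in r were not tested. Ccl2 ran with Arhgef3 (0.997), Il12a and Tnfrsf14 (both 0.992), Ccl3 with Tnfsf9 (0.998), Pim1 and Tbc1d2b (both 0.996), and Ccl4 with Mmp14 and Il27 (both 0.997) and Ciita (0.996). Ccl22 ran with Rasgef1b (0.998), Icosl and Nrp2 (both 0.997), Ccl17 with Hk2 (0.988), Tbc1d17 (0.987) and Cdc42ep4 (0.986), and Ccl7 with Trit1 (0.983), E2f8 (0.978) and Lcn2 (0.975). Ccl5 ran with Spi1 (0.984), Herpud1 (0.976) and Slc15a3 (0.974). For Ccl6 they were Atp6v1d (0.996), Lamp2 (0.988) and Mcemp1 (0.973), for Ccl9 Nck1 (0.978), Ap3m1 (0.969) and Ms4a6c (0.961), and for the scarce Ccl12 Rnf135 (0.90), Zbtb11os1 (0.889) and Psmc1 (0.87).

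Of 11 other CC ligands, 10 stayed under the filter. The remaining one, Ccl24, an attractant of eosinophils, averaged 82.1, 76.8 and 66.8 FPKM in control, R837 and R837 with spermidine and passed no test as fitted here. For R837 with spermidine against control it was lower with quantile normalization (-0.39, adjusted p = 0.031) and without spermidine replicate 1 (-0.47, adjusted p = 0.0081). Among the CC receptors, Ccr7, which guides dendritic cells to lymph nodes, rose with R837 from 80.3 to 107 FPKM (0.40, adjusted p = 0.01) and gave 0.21 with spermidine (adjusted p = 0.19, or 0.32 and 0.012 without R837 replicate 2). Ccr1, the receptor of Ccl6 and Ccl9, read 70.1, 16.9 and 73.0 FPKM in the R837 libraries, low in replicate 2 as those ligands were, and passed no test as fitted here. For R837 with spermidine against control it passed without R837 replicate 2 (0.24, adjusted p = 0.017) and with only those groups fitted (0.24, adjusted p = 0.025). Ccrl2, an atypical receptor that holds chemerin at the cell surface, rose from 72.6 to 321 FPKM (2.13, adjusted p = 3.2e-08) and fell to 249 with spermidine (-0.36, adjusted p = 0.0078). Cpd, a carboxypeptidase, rose from 12.1 to 37.7 FPKM (1.55, adjusted p = 1.5e-05) and gave -0.30 with spermidine (adjusted p = 0.15, or -0.44 and 0.023 without R837 replicate 2).

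Of 15 transcription factors known to act on such genes, 9 rose and 3 fell with R837 (median log2 change 0.58, all tested genes -0.171), and with spermidine 1 rose and 4 fell (median -0.22, all tested genes -0.02). These and the next counts stand beside 13.6% of all tested genes called higher and 29.5% lower with R837, and 5.6% higher and 8% lower with spermidine. Nfkb2, an NF-kB subunit, averaged 33.9, 175 and 95.6 FPKM in the 3 groups and fell with spermidine (-0.86, adjusted p = 0.00087). Batf, a partner of AP-1 factors, averaged 10.6, 67.8 and 24.4 FPKM and fell (-1.43, adjusted p = 0.00041). Irf1, an interferon regulatory factor, averaged 11.8, 80.1 and 44.8 FPKM (-0.82, adjusted p = 0.022), Nfkb1 10.1, 50.8 and 39.4 (-0.35, adjusted p = 0.035), and Jun, an AP-1 subunit, 119, 54.1 and 71.5 (0.40, adjusted p = 0.019). The calls of these last 3 with spermidine were lost when single libraries were left out, with adjusted p up to 0.075 for Irf1, 0.10 for Nfkb1 and 0.06 for Jun, and under some other settings. The count of 5 called factors was 2 without spermidine replicate 1 or 3, and 3 without R837 replicate 1 or spermidine replicate 2.

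Of 12 tested genes of the IL-4 response, 3 rose and 6 fell with R837 (median -0.32, all tested genes -0.171), and 3 rose and 3 fell with spermidine (median 0.10, all tested genes -0.02). Socs1, a feedback inhibitor of cytokine receptors, averaged 9.42, 44.7 and 25.3 FPKM and fell with spermidine (-0.80, adjusted p = 0.001). Klf4, a myeloid transcription factor, averaged 16.3, 10.2 and 16.5 FPKM and rose (0.65, adjusted p = 0.0025), and Arg1, an arginase, averaged 3.39, 2.15 and 4.86 and rose (0.89, adjusted p = 0.0017). Irf4, a factor needed for many IL-4 responses, averaged 15.2, 41.0 and 33.3 FPKM, with a rise under R837 (1.37, adjusted p = 1.2e-06); its call with spermidine (-0.29, adjusted p = 0.036) was lost when single libraries were left out, with adjusted p up to 0.13, and under some other settings, as was that of the mannose receptor Mrc1 (0.47, adjusted p = 0.031, up to 0.11). Pparg, a lipid-sensing receptor, fell with R837 from 22.5 to 8.06 FPKM (-1.38, adjusted p = 1e-05) and Cish, a relative of Socs1, rose from 2.16 to 4.68 (0.88, adjusted p = 0.0033). The count of 6 with spermidine was 3 without spermidine replicate 1 or 3.

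Of 7 mRNA decay factors, 2 rose and 1 fell with R837 (median 0.06, all tested genes -0.171), and 1 fell with spermidine (median 0.09, all tested genes -0.02); 1 of 7 is near the shares of all genes called lower or under them. Zc3h12a, a nuclease that cuts cytokine mRNAs, averaged 21.1, 141 and 108 FPKM and rose with R837 (2.68, adjusted p = 7.3e-08); its call with spermidine (-0.38, adjusted p = 0.031) was lost under most single omissions, with adjusted p up to 0.10, and under some other settings, and the count went from 0 to 3. Zfp36, which binds AU-rich elements, rose from 29.4 to 43.6 FPKM (0.56, adjusted p = 0.0028) and Zfp36l2, of the same family, fell from 187 to 83.1 (-1.16, adjusted p = 5.6e-06). The AU-rich pentamer ATTTA stood 5 times in the annotated 3′ UTRs of Ccl3 (409 bases), Ccl9 (2465) and Ccl12 (167), and 4 times in Ccl6 (943). It stood 2 times in Ccl4 (302), Ccl7 (435) and Ccl22 (1813), 1 time in Ccl2 (275) and not at all in Ccl5 (199) and Ccl17 (183). These counts are not scaled to length. Of 14938 genes with a 3′ UTR of 150 to 2500 bases, 63.8% held at least 1.

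Ccl2 overlaps an antisense gene, Gm17268, that was listed at 0 in all libraries, and Ccl6 overlaps E230016K23Rik, which read 0.627 to 1.46 FPKM. Whether counting used strand is not given in the sources used here. Of the 2957 stretches of 50 bases in the Ccl9 transcript, 59 also occur in transcripts of other genes (250 in all), so reads from those stretches are uncertain, and no other of the 10 ligands shares one.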

How the data were processed

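The 9 deposited tables hold FPKM per gene made by the authors; HISAT2 and StringTie, and the builds mm8 and mm10, are named without versions or roles per the submitters' processing notes. Replicates were not pooled. Ensembl IDs without their versions were matched to GENCODE M21 symbols (52403 of 52550) and rows summed per symbol. FPKM values are not counts, so no count test was run. Genes with FPKM of at least 1 in at least 3 of 9 libraries were fitted on log2(FPKM + 1) with limma 3.58.1 (R 4.3.3, trend) over all 9 libraries, with Benjamini-Hochberg adjustment over all 11768 tested genes in each comparison. The pseudocount understates changes of low genes, Ccl12 above all. The fit was tested on simulated data. Pairs of ligands were compared by exact permutation tests over libraries (scipy 1.17.1). Depth was read from the steps of low FPKM values, 42.1% to 45.4% of which fell on whole steps or midway between them, so it is approximate.

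All 10 ligands are named. In the other lists the rule was to give values for up to 4 called genes per list with the largest absolute log2 change, applied to R837 against control and to R837 with spermidine against R837, and for genes with a mean FPKM of at least 10. The last clause was followed only for lists with at most 3 tested genes, so 20 of the 34 genes the rule allows have values here; 1 gene is not reported here. The members and lists were chosen with earlier results of these data known.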

Additional observations from a re-analysis of the deposited data

How the results depend on the processing

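Over 19 alternatives (pseudocounts, TPM, filters, scalings, no trend, fewer groups, a replicate block and each library left out), the 10 ligands had 567 values: 545 kept direction and side of the threshold, 4 lost and 13 gained a call, and 5 reversed. The reversed values were, without R837 replicate 2, Ccl6 (-0.21) and Ccl9 (-0.37) with spermidine against R837 (up to 0.35 and 0.28 without other libraries), and for Ccl7 against control 0.17 with median-of-ratios scaling, 0.11 without control replicate 3 and 0.04 without spermidine replicate 2 (down to -0.12 without others). Ccl5 with spermidine passed with TPM (adjusted p = 0.034), with a mean FPKM of at least 5 (0.041) and with a pseudocount of 5 (0.05), and against control with median-of-ratios scaling (0.014). In fits of only the groups compared, Ccl5 (0.038), Ccl6 (0.019) and Ccl9 (0.0012) passed against control. For those of the other genes that reversed, the values were Ccl24 0.10 and Ccr1 0.066 with R837 (median-of-ratios scaling; without R837 replicate 2, down to -0.96 without others), and against control Mrc1 0.10 (median-of-ratios scaling) and Klf4 -0.014 and -0.0056 (without control replicate 1; without spermidine replicate 3). The cause was not tested. Over all tested genes, a mean FPKM of at least 5, which leaves fewer genes, gave 2925 calls with R837 (5081 in the main analysis) and 3152 with both against control (5508). With spermidine against R837, 1601 calls became 796 with only the 2 groups, which leaves fewer libraries, and 735 to 1640 with 1 library left out, the lowest without spermidine replicates 3 (735) and 2 (755). Median-of-ratios scaling moved the median of all genes by 0.16 with R837 and 0.17 with both against control; calls that were higher went from 31.6% to 54.7% (43.6% with quantile normalization) and from 30.1% to 53.9% (43.8%). With the replicate block 4813, 1131 and 5245 genes were called in the 3 comparisons, and 7, 6 and 6 ligands, the same numbers as without it. Under the block Irf4 (adjusted p = 0.065), Mrc1 (0.064), Zc3h12a (0.054) and Nfkb1 (0.05) lost their calls with spermidine. Same-numbered libraries showed little shared deviation (r -0.0912 to 0.159, 2 of 9 pairs over 0.1), and 1 of 9 libraries was closest to its own number. With 3 libraries a group, such correlations cannot show whether the numbers pair the samples. List counts were recomputed under every alternative, a choice made after seeing the data. Among the ligands depth limits Ccl12 most, at 9 to 23 units.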
